A study of Lactuca sativa with 20 samples.

Results

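The comparison described here sets lettuce seedlings given the peptide CLE12p together with ACC against seedlings given ACC alone, which asks what the peptide changes while the ethylene precursor is present. Its members are the 3 libraries labelled with CLE12p and ACC and the 3 libraries labelled with ACC, 6 of the 20 libraries of the series, and all genes of the table are considered. In the CLE12p with ACC group, whole lettuce seedlings of the variety Little Gem, *Lactuca sativa*, were held for 2 h in 10 µM CLE12p and 10 µM ACC. The ACC group was held for 2 h in 10 µM ACC without the peptide. The groups drawn on for comparison were CLE12p with ABA, ABA, CLE12p alone and water, with 3 libraries each, and 0.02% ethanol with 2. ABA was given at 10 µM, CLE12p at 10 µM throughout, and every treatment lasted 2 h. All seedlings were 4 days old and had been grown on MS medium in continuous light. The design text names ABA in place of CLE12p as the partner of ACC, whereas the treatment labels of the 3 libraries name CLE12p, and the grouping here goes by those labels. Nothing in them tells whether replicates came from separate sets of seedlings, so p-values measure only the spread between libraries, which may be technical.

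CLE peptides are short signals that plant cells secrete. In *Arabidopsis*, members of the family are perceived by receptor kinases with leucine-rich repeats at the cell surface and are best known for controlling stem cell number in meristems and the formation of vascular tissue. ACC is made into ethylene by the enzyme ACC oxidase, and ethylene is the gaseous hormone that promotes ripening, abscission and senescence. ABA, abscisic acid, is the hormone of drought and seed dormancy and also promotes senescence. The series title names the peptide as one that delays senescence.

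The 6 libraries held between 20985558 and 27101622 counts of reads, and 23413 of 37828 gene models had enough counts to be tested. The files do not pair the gene identifiers with names, and 0 of the 37828 identifiers matched the reference gene table. Genes are therefore given by identifier, with no function, and the responses are described through lists of genes that the other treatments define. For the same reason no sequences are shown. Since whole seedlings were sampled, fewer cells of a type and less RNA per cell cannot be told apart. Levels are in CPM, the count of a gene scaled by library size and a TMM factor. A gene was called when edgeR's quasi-likelihood test gave a Benjamini-Hochberg adjusted p below 0.05 over all genes tested.

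Adding the peptide to ACC raised 763 genes and lowered 404. These are 3.26% and 1.73% of the genes tested, and together the 1167 calls are 4.98%. At an unadjusted p below 0.05 there were 3761 genes. The rising genes had a median change of 1.55-fold with quartiles of 1.34 and 1.94, and 174 of them rose at least 2-fold, of which 46 rose at least 4-fold. The falling genes had a median change of 1.42-fold with quartiles of 1.31 and 1.70, and 65 of them fell at least 2-fold, of which 4 fell at least 4-fold. The median log2 fold change over all genes tested was 0.0017. Of the calls, 65.4% were rises.

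The rising genes took 6.00%, 6.35% and 6.32% of all counts in the CLE12p with ACC libraries, against 4.24%, 4.14% and 4.28% in the ACC libraries. The falling genes took 3.78%, 3.50% and 3.41% of all counts in CLE12p with ACC, against 4.93%, 5.33% and 4.93% in ACC. The genes tested but not called held between 90.1% and 90.2% of the counts with the peptide, and between 90.5% and 90.8% without it. These shares describe genes picked by the same comparison and carry no test.

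**Figure D1:**
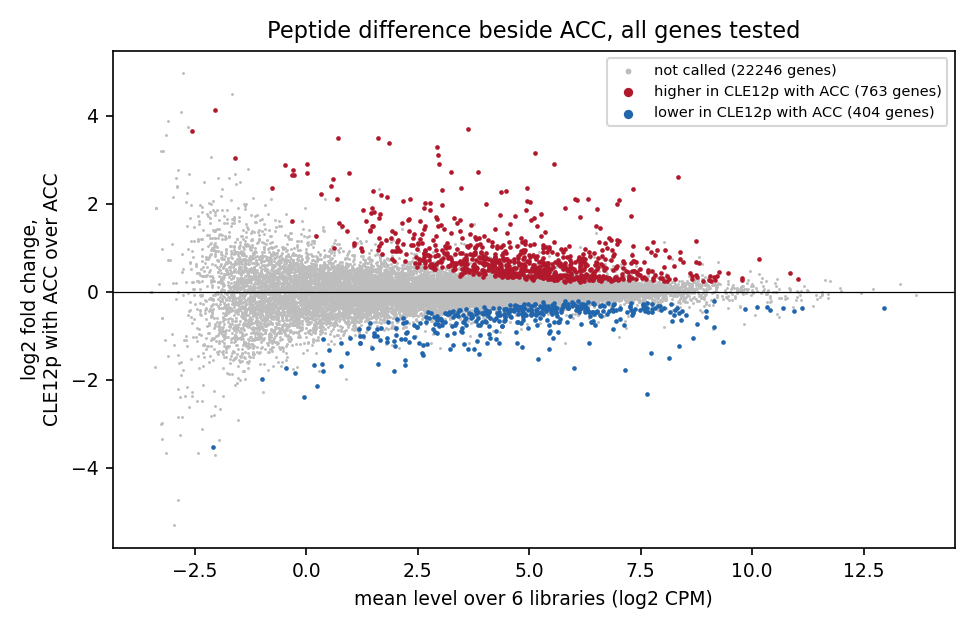
Each point is 1 of 23413 genes, with its mean level over the 6 libraries in log2 CPM on the horizontal axis and its log2 fold change of CLE12p with ACC over ACC on the vertical axis. Red points are the 763 genes called higher and blue points the 404 called lower, and the red points reach further from 0.

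The libraries of both groups did not overlap for 752 of the 763 rising genes and for 400 of the 404 falling genes. Without regard to the test, 21.9% of all genes tested did not overlap (11.8% higher and 10.2% lower in CLE12p with ACC). On the first principal component of log2 CPM over the 6 libraries, which held 32.1% of the variance, CLE12p with ACC lay at 17.0, 26.99 and 37.7 and ACC at -26.9, -27.1 and -27.7. The peptide libraries were further from each other than the ACC libraries were. On the second component, with 20.5% of the variance, they lay at -34.7, -15.7 and 36.6, and the ACC libraries at 9.29, 9.31 and -4.84. The median SD per gene was 0.166 log2 CPM in CLE12p with ACC and 0.129 in ACC.

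The number of calls depended on single libraries. Leaving out replicate 2 of ACC gave 610 calls, 460 higher and 150 lower. Leaving out replicate 2 of the CLE12p with ACC group gave 712, with 514 higher and 198 lower. Leaving out any other of the 6 libraries gave between 792 and 1093. The falling genes then numbered 247 without replicate 1 of ACC and 264 without its replicate 3. They numbered 346 without replicate 1 of CLE12p with ACC and 248 without its replicate 3. Calls made with all libraries and in each of the 6 fits that left out 1 library numbered 467. They were 376 of the 763 rising genes, or 49.3%, and 91 of the 404 falling genes, or 22.5%. Calls were also tied to how many reads a gene had. Of the genes in the lowest quartile of mean count over the 6 libraries, up to 72.3 counts, 32 were called higher and 22 lower, or 0.922%. Of those in the highest quartile, above 891 counts, 332 were called higher and 170 lower, or 8.58%. Called genes had a median change of 3.08-fold in the lowest quartile and 1.36-fold in the highest.

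Among genes called in every such fit, and whose groups did not overlap, Lsat_1_v5_gn_4_13901 was the rising gene with the smallest p. Its level was 174, 148 and 177 CPM in the CLE12p with ACC libraries, against 38.5, 41.2 and 36.2 CPM in the ACC libraries. Each peptide library was far above each ACC library, and the spread within either group was small beside the gap. The rule asked for groups without overlap and took the smallest p. For every gene it named, the gap therefore follows in part from the choice. Means were 166.4 ± 15.6 and 38.6 ± 2.50 CPM (SD, n = 3 each), a log2 fold change of 2.11 ± 0.09 (SE; edgeR adjusted p = 2.90e-12). Beside ABA the gene averaged 145.5 ± 2.86 CPM with CLE12p, against 31.2 ± 1.43 CPM in ABA. Without a hormone it averaged 168.5 ± 21.9 CPM with CLE12p, against 33.3 ± 2.26 CPM in water. In ethanol it stood at 35.1 ± 0.125 CPM (SD, n = 2). The peptide changed it by 2.22 ± 0.09 on the log2 scale beside ABA (edgeR adjusted p = 1.33e-12) and by 2.34 ± 0.09 in water (edgeR adjusted p = 4.67e-13). Neither differed from the change beside ACC past the threshold. The difference, ACC background minus the other, was -0.11 ± 0.12 for ABA (edgeR adjusted p = 0.750) and -0.23 ± 0.12 for water (edgeR adjusted p = 0.651).

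Lsat_1_v5_gn_3_119200, the other rising gene named by the same rule, changed by more. It stood at 629, 784 and 1004 CPM in CLE12p with ACC, against 126, 137 and 133 CPM in ACC. The peptide libraries differed among themselves by more than the ACC libraries did, but the lowest of them was still well above every ACC library. The log2 fold change was 2.61 ± 0.12 (SE; edgeR adjusted p = 4.94e-12). In water the peptide raised it by 2.24 ± 0.12 (edgeR adjusted p = 5.48e-11), to 672 ± 23.9 CPM with CLE12p, against 142 ± 13.4 CPM in water. Beside ABA it rose by 1.97 ± 0.12 (edgeR adjusted p = 6.47e-10), to 430.2 ± 4.02 CPM in CLE12p with ABA, against 109.9 ± 7.69 CPM in ABA. The difference between the ACC and the ABA backgrounds was 0.64 ± 0.16 and did not pass the threshold (edgeR adjusted p = 0.0521).

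Lsat_1_v5_gn_5_151680 was the falling gene with the smallest p by that rule. It stood at 12.7, 12.4 and 14.9 CPM in CLE12p with ACC, against 35.1, 27.9 and 27.3 CPM in ACC. The highest peptide library was below the lowest ACC library, as the rule required. The log2 fold change was -1.17 ± 0.13 (SE; edgeR adjusted p = 5.80e-06). Its mean in CLE12p with ACC, 13.3 ± 1.37 CPM, was close to that in water, 12.4 ± 1.41 CPM (SD, n = 3 each), while ACC alone stood at 30.1 ± 4.35 CPM. With CLE12p alone the level was 9.86 ± 1.16 CPM, and its change in water did not pass the threshold (-0.34 ± 0.14; edgeR adjusted p = 0.200). The difference between the changes beside ACC and in water, -0.83 ± 0.19, did not pass it either (edgeR adjusted p = 0.226). ABA also held the gene high, at 33.8 ± 4.77 CPM, and in CLE12p with ABA it stood at 30.5 ± 3.47 CPM, a change that did not pass the threshold (-0.15 ± 0.13; edgeR adjusted p = 0.602). The peptide's change beside ACC differed from that beside ABA by -1.03 ± 0.18 (edgeR adjusted p = 0.0161), a call that was lost only without ABA replicate 1 among the 12 libraries left out in turn (-0.93; adjusted p = 0.0585).

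Lsat_1_v5_gn_2_25400, the other falling gene, was lower wherever the peptide was given. Its level was 13.0, 14.3 and 14.2 CPM in CLE12p with ACC, against 24.6, 28.4 and 24.4 CPM in ACC, without overlap as the rule required. It fell by 0.90 ± 0.11 on the log2 scale beside ACC (SE; edgeR adjusted p = 9.98e-06), by 0.92 ± 0.10 beside ABA (edgeR adjusted p = 9.34e-06) and by 1.01 ± 0.10 in water (edgeR adjusted p = 1.47e-06). Mean levels were 16.6 ± 2.54 CPM in CLE12p with ABA and 31.2 ± 2.37 CPM in ABA, and 18.5 ± 2.03 CPM in CLE12p alone and 37.2 ± 1.35 CPM in water. The CLE12p with ACC libraries held the lowest mean of the 7 groups, 13.8 ± 0.698 CPM.

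**Figure D2:**
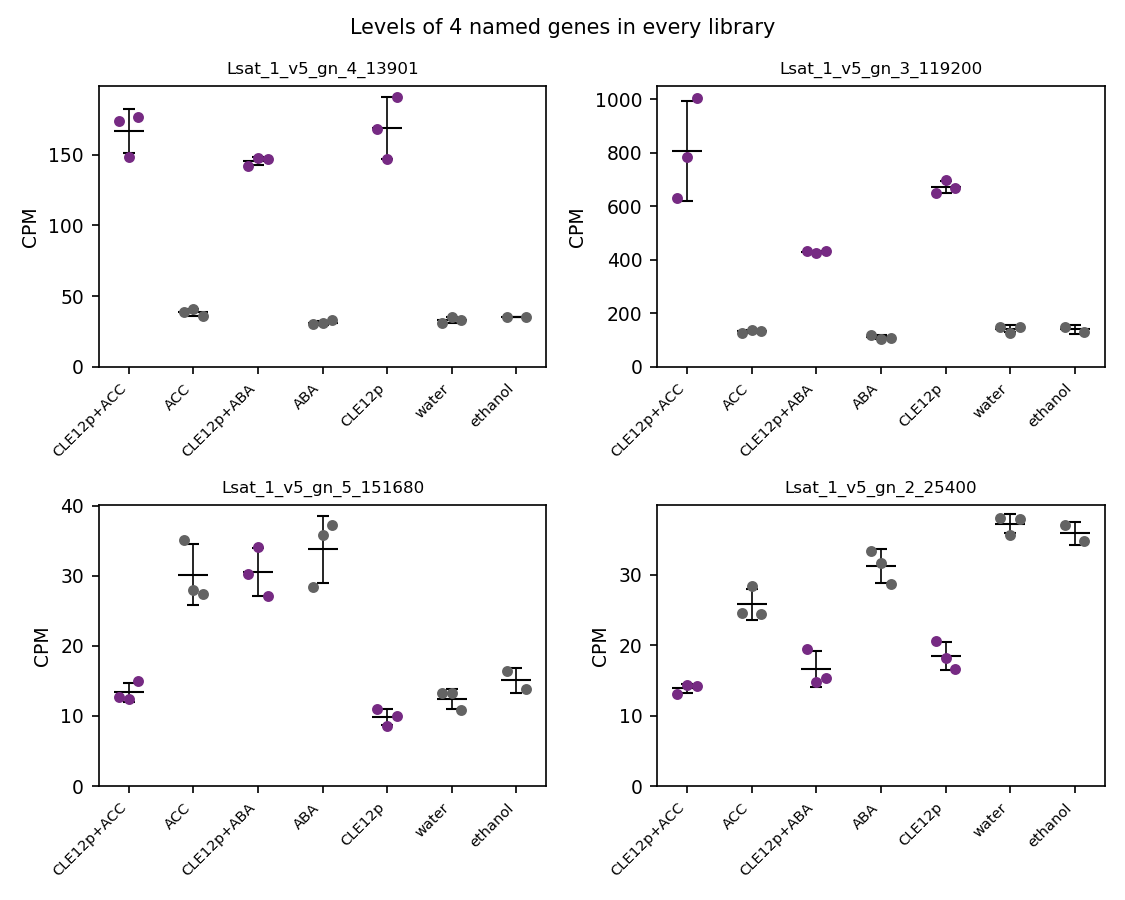
Each panel shows 1 gene, with CPM on the vertical axis from 0 and the 7 groups on the horizontal axis. Points are libraries (purple with CLE12p, grey without), and bars are the mean and SD. The upper pair of genes is high in every library with the peptide, the lower right gene is low in every library with it, and the lower left gene is high in ACC, ABA and CLE12p with ABA but not in CLE12p with ACC.

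Genes that the peptide moved without a hormone mostly had a change of the same sign beside ACC. With CLE12p alone, 1251 genes or 5.34% of those tested differed from water, with 1019 higher (4.35%) and 232 lower (0.991%). None of those libraries is among the 6 compared here. Of the 1019 rising genes, 468 (45.9%) were also called higher in CLE12p with ACC and 1 (0.0981%) lower, beside 3.26% and 1.73% of all genes tested, and their median log2 fold change beside ACC was 0.42 (quartiles 0.20 and 0.76), with 92.9% above 0. Of the 232 falling genes, 55 (23.7%) were also called lower beside ACC and 0 higher, with a median of -0.25 (quartiles -0.41 and -0.11) and 11.6% above 0. Over all genes tested the median was 0.0017, with quartiles of -0.15 and 0.15 and 50.4% above 0.

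Library by library, the mean log2 CPM of the 1019 genes was 0.52, 0.57 and 0.57 above the ACC mean in the CLE12p with ACC libraries, against 0.05, -0.02 and -0.03 in the ACC libraries. For the 232 falling genes the mean was -0.28, -0.26 and -0.27 in CLE12p with ACC, against -0.01, 0.03 and -0.02 in ACC. All 3 peptide libraries were shifted by nearly the same amount in each list. These libraries lay far apart on the second principal component, but not in these means.

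Genes that the peptide moved beside ABA gave a median above 0 for the rising list and near 0 for the falling one. Between CLE12p with ABA and ABA, 919 genes or 3.93% of those tested differed, with 620 higher (2.65%) and 299 lower (1.28%), and these libraries too are separate from the 6. Of the 620 rising genes, 289 (46.6%) were called higher beside ACC and 12 (1.94%) lower, while of all genes tested 3.26% were called higher and 1.73% lower. The list had a median of 0.38 (quartiles 0.13 and 0.78). Of the 299 falling genes, 23 (7.69%) were called lower beside ACC and 1 (0.334%) higher, with a median of -0.08 (quartiles -0.23 and 0.06). The mean of the falling list was -0.23, -0.09 and 0.01 in the CLE12p with ACC libraries, against 0.05, -0.01 and -0.05 in the ACC libraries, so the groups overlapped. The median of the list was 0.0043 with replicate 1 of CLE12p with ACC left out.

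The list that the peptide raised beside ABA also allows its size beside ACC to be set against its size in water, since neither entered the choice. Over the 620 genes the median peptide change was 0.38 beside ACC and 0.61 in water on the log2 scale. The median of the gene-by-gene difference, ACC background minus water, was -0.18, compared with -0.0064 over all genes tested. With each of the 12 libraries left out in turn it lay between -0.26, without replicate 2 of CLE12p, and -0.12, without its replicate 3. This median was not among the planned results, and no other alternatives were run for it.

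Genes that differed between ABA and ethanol can be read in the same way, since neither of these groups enters the comparison. The labels do not say whether the ABA solution also held ethanol, so in this list a change with ABA and one with ethanol cannot be told apart, and raised or lowered by ABA means relative to ethanol. ABA and ethanol differed for 2378 genes or 10.2% of those tested, with 1206 higher in ABA (5.15%) and 1172 lower (5.01%). Of the 1172 genes that ABA lowered, 157 (13.4%) were called higher in CLE12p with ACC than in ACC and 32 (2.73%) lower, with a median of 0.07. Over all genes tested, 3.26% were called higher and 1.73% lower. Of the 1206 genes that ABA raised, 64 (5.31%) were called higher and 58 (4.81%) lower, with a median of -0.02. The median peptide change in water was 0.10 for the genes that ABA lowered and 0.03 for those it raised. Beside ABA it was 0.15 and -0.07, but the ABA libraries entered the choice of these lists. Library by library, the genes that ABA lowered averaged 0.11, 0.14 and 0.09 above the ACC mean in CLE12p with ACC, against -0.03, 0.03 and 0.00 in ACC. The design text would put ABA in the combined group, where the labels put CLE12p. Beside that, the measured medians in this group relative to ACC were -0.02 for genes that ABA raised and 0.42 for genes that CLE12p raised.

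Genes responding to ACC were taken by setting the average of CLE12p with ACC and ACC against that of CLE12p and water, so that the peptide counts equally on either side. The 6 libraries described here thus entered the choice. In that contrast 3011 genes (12.9%) differed, with 1619 higher (6.91%) and 1392 lower (5.95%). Among the 1619 genes raised by ACC, 246 (15.2%) were called higher with the peptide and 17 (1.05%) lower, with a median of 0.11, where all genes tested gave 3.26% and 1.73%. Among the 1392 genes lowered by ACC, 41 (2.95%) were called higher with the peptide and 134 (9.63%) lower, with a median of -0.10. In either list more genes were called in the direction of ACC than back from it. A gene could enter a list through its level in CLE12p with ACC alone, so these counts only describe the lists. Lsat_1_v5_gn_5_151680, described above, was among the 17 that moved back. The median peptide change of the same genes in water was 0.24 for the rising and -0.14 for the falling list, and beside ABA it was 0.18 and -0.13. The water and CLE12p libraries entered the choice of these lists, while the ABA libraries did not.

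**Figure D3:**
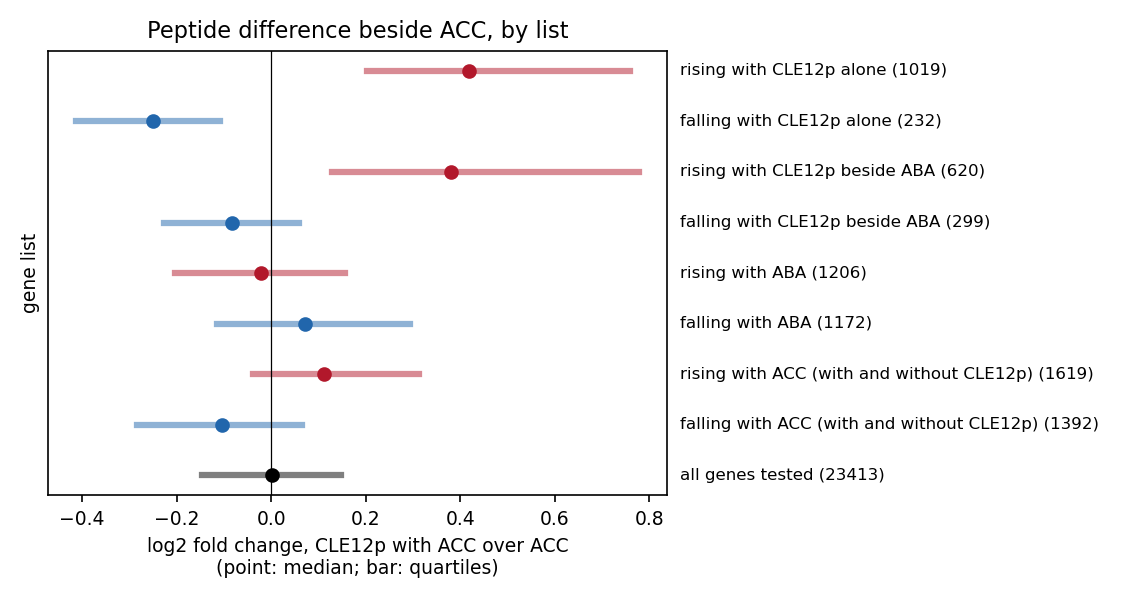
Each row is a list of genes called in another treatment, with its number of genes, and the last row is all genes tested. The horizontal axis is the log2 fold change of CLE12p with ACC over ACC, points are medians and bars run between the quartiles. The list raised by CLE12p alone lies furthest right, at a median of 0.42, and the list lowered by it furthest left, at -0.25.

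The called genes were sorted by whether the peptide also moved them in the other backgrounds. Of the 763 rising genes, 261 were also called higher both alone and beside ABA, 207 alone but not beside ABA, and 28 beside ABA but not alone. A further 266 (34.9%) were called in neither, and 1 was called in the opposite direction. Of the 404 falling genes, 15 were called lower in both, 40 alone only and 8 beside ABA only. Those called in neither numbered 328 (81.2%), and 13 were called in the opposite direction in at least one of them. A missing call does not show a missing change, and the genes were chosen on their change beside ACC, so its size there is a description. The 266 rising genes had a median of 0.47 beside ACC, 0.21 alone and 0.10 beside ABA, and 92.1% of them were above 0 alone. The 328 falling genes had a median of -0.50 beside ACC, -0.18 alone and 0.02 beside ABA, and 89.0% of them were below 0 alone.

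Direction could be read for every gene, called or not. Of all 763 rising genes 97.2% also had a positive change with the peptide alone, and 86.6% beside ABA. Of all 404 falling genes 89.9% had a negative change alone, but 52.5% did so beside ABA. Over all genes tested the direction beside ACC was shared with that alone by 61.1% and with that beside ABA by 53.1%.

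**Figure D4:**
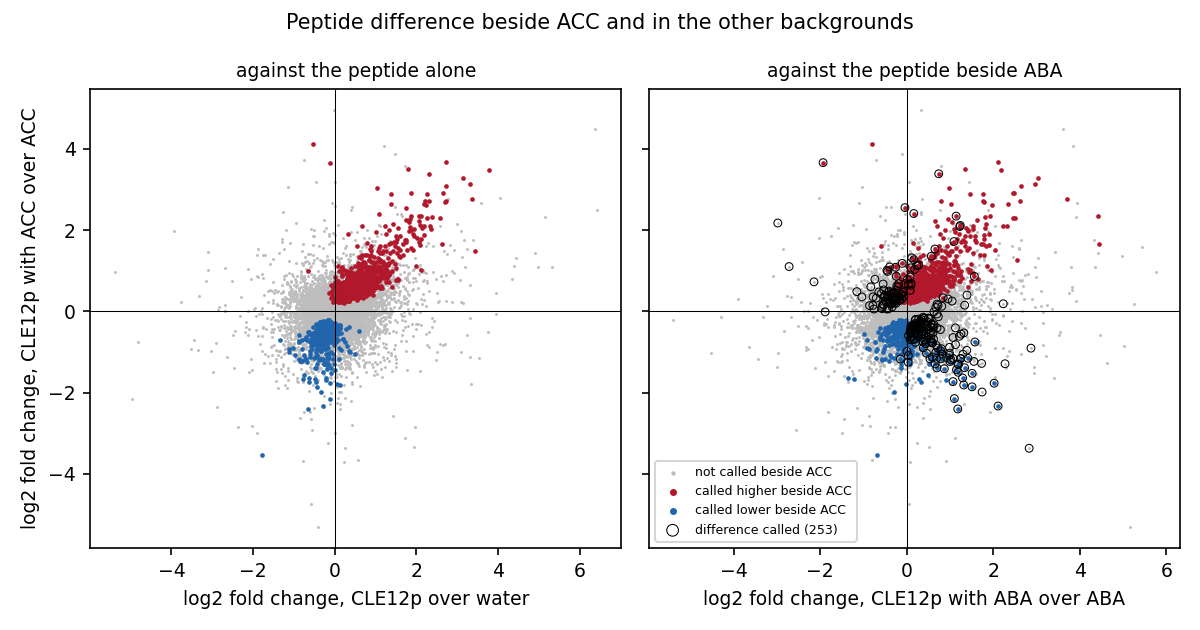
Each point is a gene, and the vertical axis of both panels is the log2 fold change of CLE12p with ACC over ACC. The horizontal axis is the log2 fold change of CLE12p over water on the left and of CLE12p with ABA over ABA on the right, red and blue mark genes called higher and lower beside ACC, and rings mark the 253 genes whose change differed between ACC and ABA. The blue points lie mostly left of 0 in the left panel and spread to both sides of 0 in the right panel.

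The difference between the backgrounds was then tested gene by gene. Against ABA, the peptide's change beside ACC differed for 253 genes, or 1.08% of those tested, with 97 more positive (0.414%) and 156 more negative (0.666%) beside ACC. At an unadjusted p below 0.05 there were 3173. The counts that follow describe genes chosen on this difference. Among the 156 genes with the more negative change, 88 were called lower beside ACC and 2 higher, and 55 were called higher beside ABA. Their median log2 change was -0.55 beside ACC and 0.56 beside ABA. In 12 of them the peptide lowered the gene beside ACC and raised it beside ABA, both past the threshold. Among the 97 genes with the more positive change, 51 were called higher beside ACC, and 31 were called lower and 6 higher beside ABA. Their median log2 change was 0.44 beside ACC and -0.31 beside ABA. With the peptide alone, which took no part in this test, the medians were -0.02 for the 156 genes, of which 11 were called higher and 1 lower, and 0.03 for the 97, of which 20 were called higher and 5 lower.

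The count of 253 moved by over 1.5 times with any of the 12 libraries left out. Dropping replicates 1, 2 and 3 of CLE12p with ACC in turn gave 491, 63 and 45 genes, and dropping those of ACC gave 110, 23 and 81. For CLE12p with ABA the counts were 161, 48 and 432, and for ABA they were 11, 42 and 72. In all 12 of these fits 11 genes were called, 6 with the more positive change, by 0.87 to 2.87 on the log2 scale, and 5 with the more negative, by -2.57 to -0.73.

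Lsat_1_v5_gn_8_10000 was 1 of those 11 and was named with Lsat_1_v5_gn_0_6400 as the pair with the highest differences. It stood at 3.87, 3.01 and 5.83 CPM in CLE12p with ACC, against 2.66, 2.77 and 2.28 CPM in ACC. These groups did not overlap, but the change of 0.73 ± 0.27 did not pass the threshold (SE; edgeR adjusted p = 0.155). Beside ABA the direction was opposite, with 0.958, 0.543 and 1.07 CPM in CLE12p with ABA, against 3.21, 4.77 and 3.43 CPM in ABA (-2.14 ± 0.32; edgeR adjusted p = 0.000291). The difference was 2.87 ± 0.42 (edgeR adjusted p = 0.00664), with adjusted p from 9.82e-08 to 0.0346 over the alternatives. In water the gene was lower with CLE12p, at 5.25 ± 1.27 CPM, against 10.2 ± 2.18 CPM in water (-0.94 ± 0.25; edgeR adjusted p = 0.0285). The difference between the changes beside ACC and in water, 1.67 ± 0.37, did not pass the threshold (edgeR adjusted p = 0.164).

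The other genes named for this difference varied widely within groups. Lsat_1_v5_gn_0_6400 stood at 7.65, 28.3 and 16.7 CPM in CLE12p with ACC, against 12.2, 6.32 and 6.05 CPM in ACC, which overlap. Its level was 12.2, 4.98 and 9.12 CPM in CLE12p with ABA, against 67.3, 67.2 and 38.9 CPM in ABA. The change was 1.10 ± 0.57 beside ACC (SE; edgeR adjusted p = 0.356) and -2.72 ± 0.57 beside ABA (edgeR adjusted p = 0.00705), a difference of 3.82 ± 0.80 (edgeR adjusted p = 0.0271). The call was lost on leaving out replicate 2 or 3 of CLE12p with ACC or of ACC, replicate 2 of CLE12p with ABA, or replicate 1 or 2 of ABA (adjusted p from 0.0585 to 0.0881).

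Lsat_1_v5_gn_1_95341 stood at 125.7, 76.6 and 71.4 CPM in CLE12p with ACC, against 347, 601 and 427 CPM in ACC (-2.33 ± 0.60; edgeR adjusted p = 0.0238). Beside ABA it was higher with the peptide, at 698, 430.0 and 141 CPM in CLE12p with ABA, against 74.1, 99.1 and 120.3 CPM in ABA. That change was 2.11 ± 0.60 and only just passed the threshold (edgeR adjusted p = 0.0487). Its levels with CLE12p alone ran from 61.0 to 704 CPM, and in water from 372 to 684 CPM, so its level also differed widely between libraries of 1 group. The difference was -4.44 ± 0.85 (edgeR adjusted p = 0.0186) and was lost on leaving out replicate 2 or 3 of CLE12p with ACC, replicate 2 of ACC, or replicate 1 or 2 of ABA (adjusted p from 0.0560 to 0.0727).

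Lsat_1_v5_gn_4_28820 was likewise lower with the peptide beside ACC and higher with it beside ABA. It had 104, 73.0 and 57.6 CPM in CLE12p with ACC, against 237, 324 and 238 CPM in ACC (-1.77 ± 0.47; edgeR adjusted p = 0.0267). In CLE12p with ABA it had 272, 222 and 82.5 CPM, against 36.8, 48.1 and 57.1 CPM in ABA (2.02 ± 0.47; edgeR adjusted p = 0.0166). The difference of -3.79 ± 0.66 (edgeR adjusted p = 0.0152) was lost without ABA replicate 1 (adjusted p = 0.0585). Its levels ran from 61.0 to 316 CPM with CLE12p alone and from 142 to 277 CPM in water, and were 58.9 and 171 CPM in ethanol. Within each of the 7 groups its libraries ranked in the same order as for Lsat_1_v5_gn_1_95341, so these genes may not be separate cases.

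**Figure D5:**
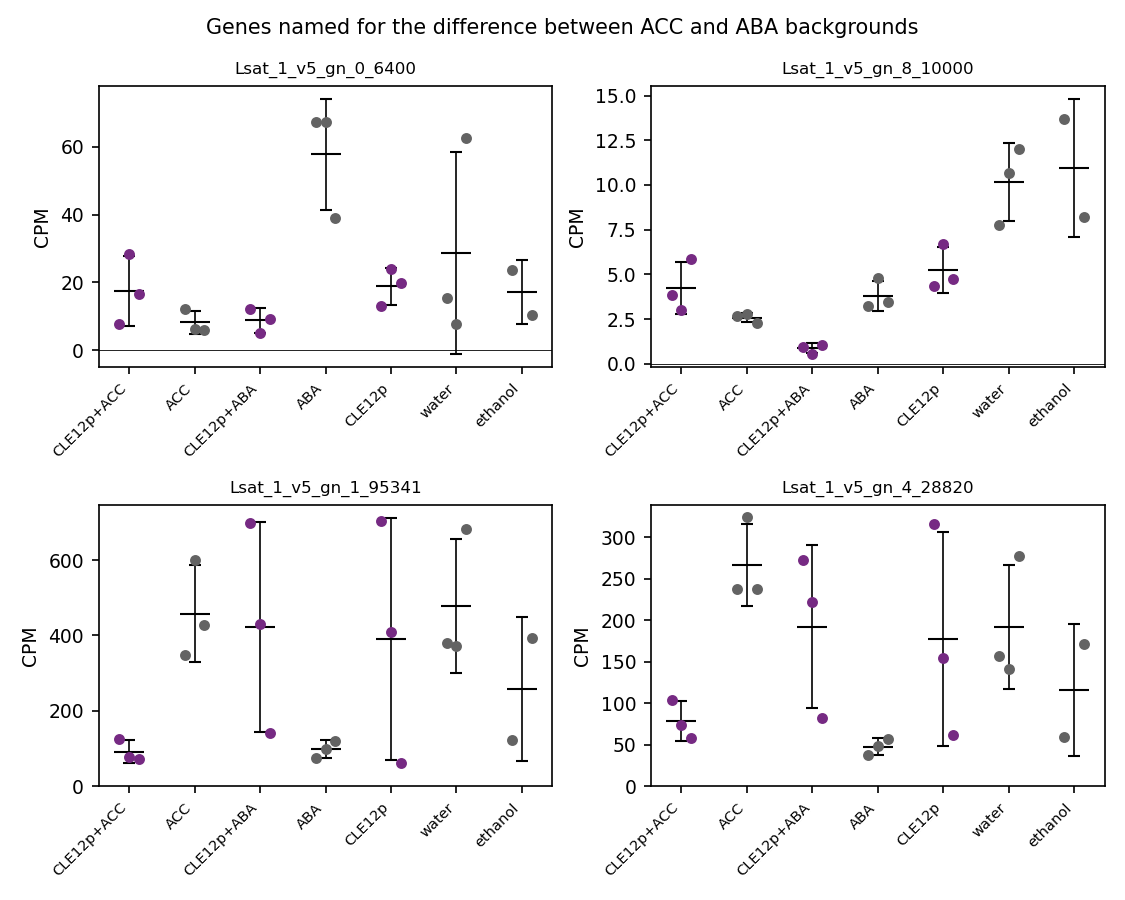
Each panel shows 1 of the 4 genes named for the difference between the ACC and ABA backgrounds, with CPM on the vertical axis and the 7 groups on the horizontal axis. Points are libraries (purple with CLE12p, grey without), and bars are the mean and SD. In the lower pair CLE12p with ACC is below ACC while CLE12p with ABA is above ABA, and the libraries of CLE12p alone are widely spread.

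Against water, 2 genes passed the test of the difference, or 0.00854% of those tested, and 1886 had an unadjusted p below 0.05. Lsat_1_v5_gn_6_12161 stood at 9.58, 11.7 and 6.51 CPM in CLE12p with ACC, against 20.1, 9.62 and 11.3 CPM in ACC, and these groups overlap. Without the hormone it stood at 9.15, 9.45 and 14.6 CPM in CLE12p, against 1.88, 1.92 and 3.22 CPM in water. Lsat_1_v5_gn_5_104920 stood at 31.4, 25.6 and 24.3 CPM in CLE12p with ACC, against 42.5, 31.4 and 32.9 CPM in ACC, where the groups nearly meet at 31.4. Without the hormone it stood at 28.4, 30.2 and 36.4 CPM in CLE12p, against 20.0, 19.0 and 20.3 CPM in water. For both genes the peptide's change was positive in water and below 0 beside ACC, with differences of -2.79 ± 0.43 and -1.07 ± 0.17 (SE; edgeR adjusted p = 0.0246 for each). In water both passed the threshold, and beside ACC neither did (edgeR adjusted p of 0.337 and 0.0538).

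These 2 calls also rested on single libraries and on the model. Both held with another scaling, without a filter on counts and with DESeq2 in place of edgeR, but not with a replicate block. With only the 4 groups compared in the fit, the adjusted p was 0.118 for Lsat_1_v5_gn_5_104920 and 0.0669 for Lsat_1_v5_gn_6_12161. With replicate 3 of CLE12p with ACC, replicate 1 of ACC, or replicate 1 or 2 of water left out, 0 genes were called, and these 2 had adjusted p from 0.0871 to 0.169. Dropping replicates 1, 2 and 3 of CLE12p gave 3, 29 and 5 genes. Dropping replicates 1 and 2 of CLE12p with ACC gave 3 and 8, replicates 2 and 3 of ACC gave 4 and 2, and replicate 3 of water gave 4.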

How the data were processed

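The table holds raw counts that the authors deposited, whole numbers for each gene model and library, with replicates kept apart. Per the labels' protocols, seedlings were frozen, RNA was treated with DNase during extraction and Illumina libraries followed. The submitters' processing notes name STAR 2.7.10a. How reads were counted, with what strand setting, build and annotation, is not given in the sources used here, so reads of near-identical copies, overlapping genes or antisense partners cannot be separated. There were 0 columns of counts left unused. Replicates within the 2 groups were not copies of each other (chi-square over its degrees of freedom 5.70 to 14.9), and each counted once.

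Genes were kept by filterByExpr with a minimum of 10 counts and scaled with TMM factors from 0.961 to 1.03. With edgeR 4.0.16 in R 4.3.3, the 20 libraries were fitted together as 7 groups that shared an estimate of the spread (common biological coefficient of variation 0.117). Tests were two-sided. Standard errors are the size of the log2 fold change divided by √F, with F from that test. Log2 CPM used a prior count of 2. Lists were described by counts and medians, with no test. The fit was also run on simulated counts with changes of known size, whose recovery is not reported here.

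Named genes for the peptide beside ACC were called, did not overlap, averaged at least 1 log2 CPM, stayed called without any 1 of the 6 libraries, and had the 2 smallest p in each direction. For the 2 tests of differences, all calls were named if 5 or fewer. Otherwise the 2 highest and 2 lowest differences were named, with the same minimum level. The comparison, lists and rules were chosen with earlier results of these data known. Alternatives were another scaling, no filter, DESeq2 1.42.0, a replicate block, fewer libraries, a minimum size of change and stricter lists.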

Additional observations from a re-analysis of the deposited data

Results flagged for a closer look

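All results here were flagged because the peptide's change beside ACC differed from its change in another background by a test of the difference itself (edgeR's quasi-likelihood test, Benjamini-Hochberg adjusted). Against ABA, 253 genes differed. The named genes had differences, in log2 units and ACC background minus ABA background, of 3.82 for Lsat_1_v5_gn_0_6400, 2.87 for Lsat_1_v5_gn_8_10000, -4.44 for Lsat_1_v5_gn_1_95341 and -3.79 for Lsat_1_v5_gn_4_28820. Lsat_1_v5_gn_5_151680, named for its fall beside ACC, had a difference of -1.03. Against water, 2 genes differed, Lsat_1_v5_gn_5_104920 by -1.07 and Lsat_1_v5_gn_6_12161 by -2.79. Of these 7 genes, Lsat_1_v5_gn_8_10000 was the only one still called under all 17 alternatives.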

How the results depend on the processing

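The 4 genes named for the peptide beside ACC kept their direction and their call under all 11 alternatives each. Being named required the call in the 6 fits that left out 1 library. Those fits are among the 11, so only the other alternatives could have lost it. Among genes in the lowest quartile of mean counts the median called change was 3.08-fold, and in the highest 1.36-fold; the part of depth in this was not tested. The 1167 calls became 1163 with median-of-ratios size factors, 1239 without a filter, 1475 in DESeq2 and 1302 with only the 6 libraries fitted, sharing 1160, 1117, 1157 and 1004 genes with the 1167, and from 610 to 1093 with 1 library left out. With a change of at least 2-fold asked for as well, 239 remained. The 253 differences from ABA became 260 with those size factors, 433 without a filter, 620 in DESeq2, 525 with only the libraries compared, and from 11 to 491 with 1 library left out. The 2 differences from water became 10, 39 and 1 under the last 3 of those settings, and from 0 to 29 with 1 library left out. The causes were not tested.

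Deviations of same-numbered samples were hardly correlated, from -0.0621 to 0.0177 over 9 pairs. In 1 of the 9 the sample correlated best with its own number. Such values cannot show whether samples of the same number were handled together. With the replicate block the counts were 1050, 160 and 0, and both genes named for the difference from water had an adjusted p of 0.0793. The block gave a median of -0.26 for genes lowered by CLE12p alone and 0.42 for genes raised by it beside ABA.

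Medians of the lists kept their sign, except for genes lowered by CLE12p beside ABA (-0.14 to 0.0043 with 1 library left out). For genes raised by CLE12p alone the median was 0.39 in DESeq2, 0.57 for lists at an adjusted p below 0.01, and 0.39 to 0.47 with 1 library left out. For genes lowered by it the values were -0.24 with the other size factors, -0.22 in DESeq2, -0.30 for the stricter list and -0.26 to -0.23. For genes raised beside ABA they were 0.34 in DESeq2, 0.61 for the stricter list and 0.36 to 0.42. Genes lowered by ABA gave 0.10 for the stricter list and 0.06 to 0.10, genes raised by ABA -0.038 to -0.00086, and genes lowered by ACC -0.15 to -0.083.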

Other observations

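No gene read at 5 or more counts in every CLE12p with ACC library had 0 counts in all 3 ACC libraries, and 28 genes with at least 1 count in each did. In the other direction, 25 genes had 0 counts in all 3 CLE12p with ACC libraries and at least 1 in each ACC library. A single gene had at least 5 in each, Lsat_1_v5_gn_3_5380, with 0, 0 and 0 counts in CLE12p with ACC, against 11, 6 and 9 in ACC. It was picked for these values and fell below the minimum count for testing.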
